A study of Mus musculus with 8 samples.

Results

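Oxidative phosphorylation subunits are the structural proteins of the 4 respiratory chain complexes, of the electron carrier cytochrome c and of the ATP synthase, called complex V. Their nuclear genes were chosen by name: each probe set with exactly 1 gene symbol was taken where that symbol is a subunit name of complexes I to V, Cyc1 or Cycs. For a gene with several probe sets, the one of highest mean over the 8 arrays stood for it. The rule gave 82 genes of the 19938 tested, which divided into 35 of complex I, 4 of complex II, 9 of complex III, 16 of complex IV, 17 of complex V and Cycs. Ndufa4 was counted under complex I by its name, although its protein is now known as a subunit of complex IV.

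The samples were mouse colonic tumors, and each of 8 was measured on its own array. One group was 3 tumors of the distal colon induced with azoxymethane (AOM, a colon carcinogen) in mice labelled K-rasG12Dint, here called K-rasG12D AOM. Another was 2 such AOM tumors of the distal colon in mice labelled LSL-K-rasG12D/+, here called LSL AOM, whose titles carry the abbreviation wt. In such an LSL (lox-stop-lox) allele a stop cassette blocks expression unless Cre recombinase cuts it out. The serrated group was 3 tumors of the proximal colon in mice labelled K-rasG12Dint and Ink4a/Arf-/-, so without the Cdkn2a locus of cell-cycle inhibitors, and their titles do not name AOM. Age, sex, AOM dose and the driver of recombination were not given in the labels, nor whether tumors of a group came from separate animals. The carcinogen, the kind of tumor, the part of the colon and the Ink4a/Arf genotype therefore go together and cannot be told apart in any comparison with the serrated group. Against LSL AOM, and so against the mean of both AOM groups, the K-ras label differs as well. Normal colon was not analysed here.

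Complex I takes electrons from NADH and complex II takes them from succinate as a step of the citric acid cycle. Both pass them through ubiquinone to complex III, and cytochrome c carries them on to complex IV, which reduces oxygen. Complexes I, III and IV pump protons, and complex V makes ATP from the returning flow. In the colon this machinery is best known for the oxidation of butyrate, the main fuel of the surface epithelium. Several subunits of complexes IV and V exist as isoforms made in muscle, heart, testis or lung. The core catalytic subunits encoded by mitochondrial DNA were not analysed here.

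Promoter windows are shown first for 4 subunits of smallest p among those with a window. They are Ndufa4 for the serrated tumors, and Uqcr11, Atp5o and Sdhb for the AOM groups. Between the AOM groups no subunit had an adjusted p under 0.05 in limma. Each window runs from 250 bases before the transcript's start to 50 bases after it, 5′ to 3′ on the gene's strand, from RefSeq on GRCm38.p6. The windows lie at chr6:11907401-11907700 on the minus strand for Ndufa4, at chr10:80406772-80407071 on the minus strand for Uqcr11, at chr16:91931581-91931880 on the minus strand for Atp5o, and at chr4:140961021-140961320 on the plus strand for Sdhb. Capitals mark the letters GCATGCGC, a core of the NRF1 site, and CCGGAAG, a core of the GABPA (NRF2) site, both factors known for binding promoters of respiratory genes.
Ndufa4: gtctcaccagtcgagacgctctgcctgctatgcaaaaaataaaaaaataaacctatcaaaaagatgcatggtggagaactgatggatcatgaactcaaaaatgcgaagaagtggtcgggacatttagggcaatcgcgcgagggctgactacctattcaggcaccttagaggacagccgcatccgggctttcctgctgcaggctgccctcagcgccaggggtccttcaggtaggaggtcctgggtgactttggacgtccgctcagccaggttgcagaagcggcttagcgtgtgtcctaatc
Uqcr11: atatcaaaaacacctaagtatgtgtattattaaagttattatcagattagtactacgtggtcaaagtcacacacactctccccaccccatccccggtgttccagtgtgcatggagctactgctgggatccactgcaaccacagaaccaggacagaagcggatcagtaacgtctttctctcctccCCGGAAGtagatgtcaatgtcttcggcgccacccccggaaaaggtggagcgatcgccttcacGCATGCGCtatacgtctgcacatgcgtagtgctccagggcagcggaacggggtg
Atp5o: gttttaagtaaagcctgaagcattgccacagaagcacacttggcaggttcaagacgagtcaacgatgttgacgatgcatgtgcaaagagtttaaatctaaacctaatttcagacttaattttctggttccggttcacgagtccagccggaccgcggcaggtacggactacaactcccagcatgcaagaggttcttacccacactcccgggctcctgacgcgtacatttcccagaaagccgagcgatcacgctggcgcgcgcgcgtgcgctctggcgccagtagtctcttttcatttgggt
Sdhb: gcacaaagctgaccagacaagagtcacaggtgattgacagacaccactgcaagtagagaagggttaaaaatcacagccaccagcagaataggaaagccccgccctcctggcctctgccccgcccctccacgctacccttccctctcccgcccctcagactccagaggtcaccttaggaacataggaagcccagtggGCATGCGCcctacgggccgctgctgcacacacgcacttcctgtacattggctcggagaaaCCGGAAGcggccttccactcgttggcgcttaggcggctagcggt
Uqcr11 and Sdhb each hold both letter strings, and Ndufa4 and Atp5o hold neither. The windows of Ndufb3 and Cox7a1, also described by their values, hold neither. RefSeq windows were found for 67 of the 82 genes, 5 of them with several windows, which made 72 windows. The NRF1 letters stood on either strand in 11 of the 72 (15.3%), against 2.71% of 32851 windows of all genes of the same length. The GABPA letters stood in 17 (23.6%), against 8.86%. The letters AAGATGGC of YY1 stood in 10 (13.9%) against 2.75%, and CAAGGTCA of ERRalpha in 4 (5.56%) against 1.56%. A match describes the letters only and says nothing of binding in these tumors.

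The deposited values are log2 signals, so a difference of 1 is 2-fold. Subunit probe sets gave high signals: 76 of the 82 lay above the median gene level of 4.26, and the median over the subunits was 7.25. The 6 below it were the tissue isoforms Cox4i2, Cox6b2, Cox7b2, Cox8b and Cox8c, and Ndufb2. Signals of different probe sets do not rank transcripts by abundance, but bright probe sets pass a test more easily, so the counts are read both against all 19938 genes and against the brightest 50% of them. Array medians lay between 4.17 and 4.31, and epithelial markers averaged 9.64 to 10.13 on every array. Serrated replicate 1 stood apart: its values had an SD of 1.77 across genes, where the remaining 7 arrays had 2.00 to 2.13.

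The serrated tumors were first set against the mean of both AOM groups, which asks how far the respiratory machinery differs at transcript level between the tumor types. Little of it passed the test. Ndufa4 was 2.5-fold lower and Cox6c was higher in serrated tumors, and the other 80 subunits did not pass. This is 2 of 82 (2.44%) with an adjusted p under 0.05 in limma, beside 9.38% of all genes and 16.2% of the brightest 50%. The median difference over the subunits was 0.06, against 0.04 over all genes and -0.19 over the brightest 50%. Subunits above 0 numbered 49 and those below numbered 33.

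The estimates were also narrow enough to bound most differences. The 95% interval lay inside ±1 on the log2 scale for 79 subunits (96.3%), against 73% of all genes and 59% of the brightest 50%. The median absolute difference was 0.17 for subunits, 0.26 for all genes and 0.38 for the brightest 50%. Beyond 0.5 in either direction were 4 subunits, and beyond 1 were Ndufa4 and Ndufs5. Groups did not overlap for 10 subunits (12.2%), against 16.2% of all genes and 23.7% of the brightest 50%. Of these, Cox6a1, Cox6c, Cyc1, Ndufa5 and Ndufa6 were higher on all 3 serrated arrays. They are 5 subunits (6.1%), beside 7.24% of all genes and 7.94% of the brightest 50%. Atp5g2, Atp5j, Ndufa4, Ndufb6 and Ndufc2 were lower (5 subunits, 6.1%, beside 8.93% and 15.7%). Within groups, the subunits had a median SD of 0.20, against 0.27 for all genes, and Ndufs5 varied most at 1.03.

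**Figure D1:**
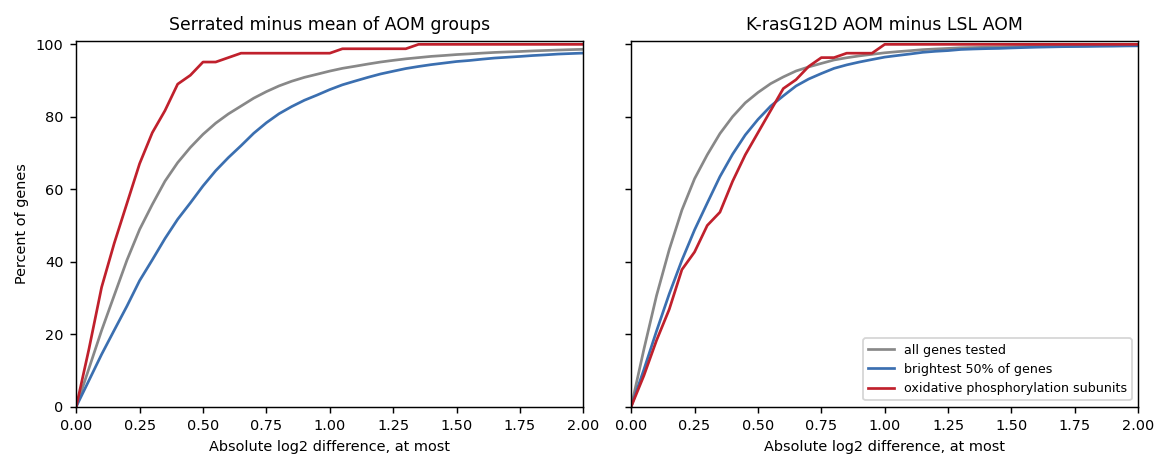
Share of genes (y axis, percent) whose absolute log2 difference is at most the value on the x axis, for the 82 subunits, all 19938 genes and their brightest 50%, with serrated minus mean of AOM groups on the left and K-rasG12D AOM minus LSL AOM on the right. On the left the subunits lie above both other lines (median absolute difference 0.17 against 0.26 and 0.38), and on the right they lie below them at small differences (0.31 against 0.18 and 0.26).

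**Figure D2:**
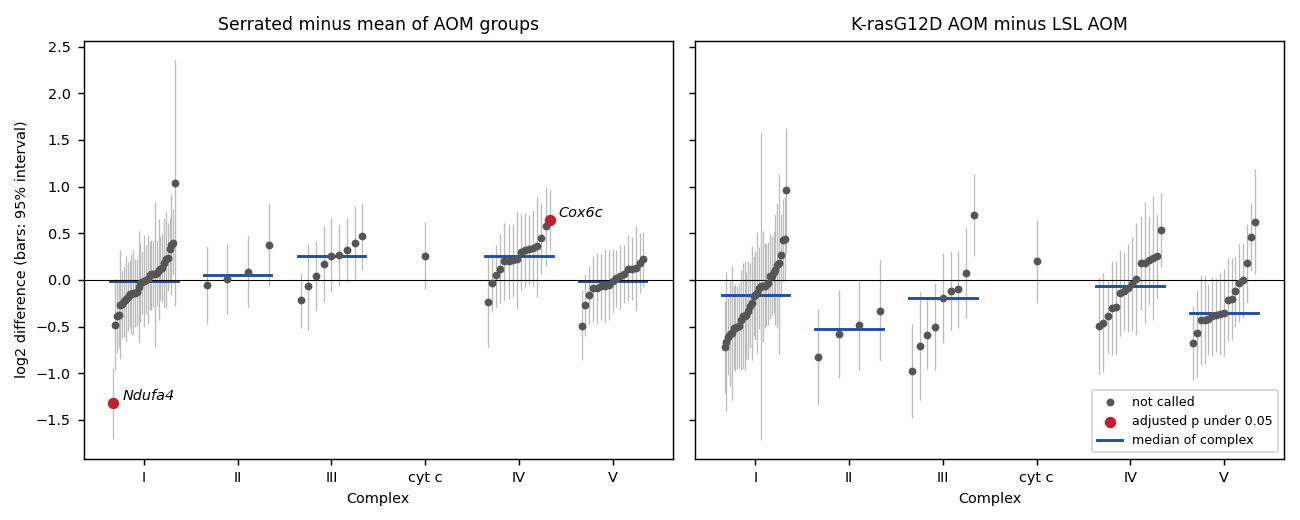
Log2 difference of each of the 82 subunits (points, with 95% intervals as bars) by complex on the x axis, with the median of each complex as a line and genes past an adjusted p of 0.05 in red, for serrated minus mean of AOM groups on the left and K-rasG12D AOM minus LSL AOM on the right. On the left the medians of complexes III and IV stand at 0.26 and those of the other complexes near 0. Ndufa4 is counted under complex I. On the right all 4 points of complex II lie below 0 and no point is red.

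Ndufa4 encodes a small subunit of complex IV that was first purified with complex I. Its level was 9.90, 10.08 and 9.93 in K-rasG12D AOM tumors, 10.28 and 9.99 in LSL AOM tumors, and 8.44, 8.81 and 8.95 in serrated tumors. All 3 serrated arrays lay below all 5 AOM arrays, with a gap wider than the spread within any group. The difference was -1.32 ± 0.17 (SE, n = 8 arrays, limma adjusted p = 0.00262), with a 95% interval from -1.70 to -0.94. It passed in all 17 other settings tried, between -1.43 and -1.18.

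Ndufa4 has relatives that are no members of the set, and they were looked up after its values were seen. AA467197, the mouse gene of the Ndufa4-related protein NMES1, read 7.28, 6.43 and 7.92 in K-rasG12D AOM tumors, 5.83 and 7.08 in LSL AOM tumors, and 9.37, 9.94 and 8.41 in serrated tumors. It was higher on every serrated array, by 2.41 ± 0.45 (limma adjusted p = 0.0141), a call lost when serrated replicate 2 (0.0725) or LSL AOM replicate 1 (0.0556) was left out. Ndufa4l2, another relative, stayed between 3.61 and 4.12 on all arrays and gave 0.02 ± 0.17.

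Cox6c encodes a small nuclear subunit of complex IV. It read 8.64, 8.95 and 8.77 in K-rasG12D AOM tumors, 8.23 and 8.27 in LSL AOM tumors, and 9.18, 9.23 and 9.05 in serrated tumors. The serrated arrays were all above the AOM arrays, the nearest being 9.05 against 8.95, and the LSL AOM arrays were the lowest. The difference was 0.64 ± 0.14 (limma adjusted p = 0.0259). It did not pass without K-rasG12D AOM replicate 1 (0.0721) or 3 (0.0574), serrated replicate 2 (0.117), LSL AOM replicate 1 (0.0877) or 2 (0.0757), or with the 5 AOM arrays as 1 group (0.092). A second probe set of Cox6c gave 0.66.

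**Figure D3:**
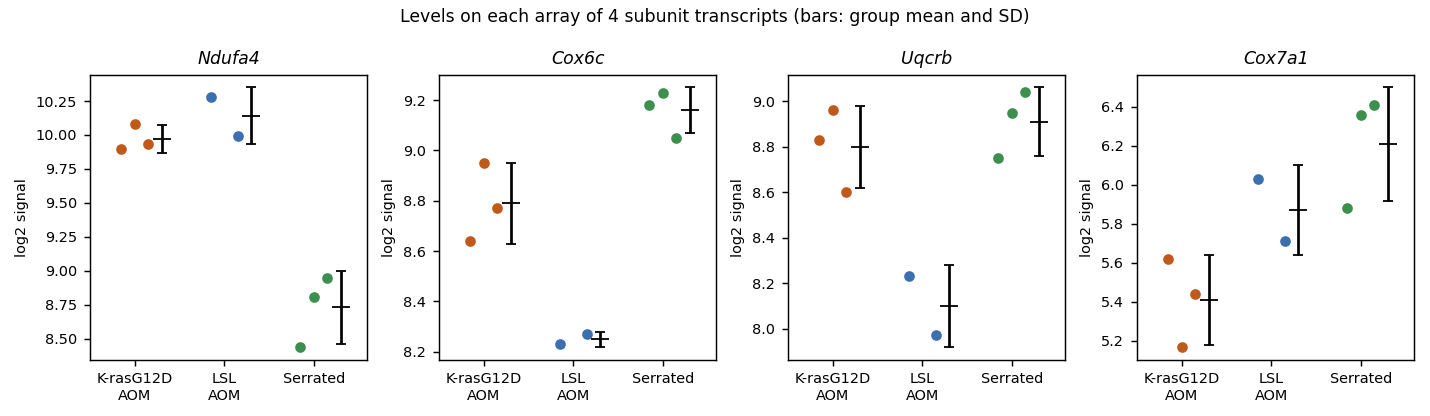
Log2 signal (y axis) of Ndufa4, Cox6c, Uqcrb and Cox7a1 on each array (points) of the 3 tumor groups (x axis), with group mean and SD as bars beside the points. The serrated points of Ndufa4 (8.44 to 8.95) lie below all AOM points (9.90 to 10.28), and those of Cox6c (9.05 to 9.23) lie just above the highest AOM point (8.95).

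Complex I was split around no change. Its median was -0.01, with 16 of 35 subunits above 0 and 19 below, and Ndufa4, counted here by its name, alone passed. After Ndufa4, the smallest p-values belonged to Ndufa5, Ndufc2 and Ndufb6, accessory subunits. Ndufa5 read 5.50, 5.86 and 5.84 in K-rasG12D AOM, 5.86 and 5.72 in LSL AOM, and 6.25, 6.27 and 5.97 in serrated tumors, for 0.40 ± 0.16 (limma adjusted p = 0.151). Ndufc2 read 8.26, 8.27 and 8.04, then 7.88 and 8.32, then 7.75, 7.72 and 7.83 in the same order, for -0.38 ± 0.16 (0.175). Ndufb6 read 7.83, 8.27 and 7.60, then 7.90 and 7.68, then 6.98, 7.53 and 7.60, for -0.48 ± 0.21 (0.209). None of the 3 passed, although their groups did not overlap. For Ndufb6 the nearest serrated and AOM arrays both read 7.60 when rounded. Ndufs5 had the largest positive difference of the complex, 1.04 ± 0.58 (0.308), but its arrays ran from 3.97 to 6.74 and overlapped across all groups. The catalytic subunits Ndufs1 and Ndufv1 gave 0.22 ± 0.23 and -0.01 ± 0.22. Ndufa10, the brightest of the complex after Ndufa4, lay between 8.40 and 8.85 on all 8 arrays and gave 0.05 ± 0.16.

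Complex II is the succinate dehydrogenase and is made of 4 subunits, all nuclear. Sdha, its flavoprotein, read 7.94, 7.82 and 7.80 in K-rasG12D AOM, 8.42 and 8.26 in LSL AOM, and 7.86, 8.27 and 8.45 in serrated tumors. Sdhb, its iron-sulfur protein, read 6.0, 6.13 and 6.08, then 6.87 and 6.93, then 6.0, 6.71 and 6.58. For both, the LSL AOM arrays were high, the K-rasG12D AOM arrays low, and serrated replicate 1 stood with the latter while the other two serrated arrays lay nearer the former. The membrane anchor Sdhc read 7.97, 7.68 and 8.30, then 8.37 and 8.25, then 8.24, 8.55 and 8.79. The other anchor, Sdhd, read 7.61, 7.93 and 7.86, then 8.53 and 8.24, then 7.87, 8.29 and 8.15. Against the mean of the AOM groups the differences were 0.09 ± 0.17, -0.05 ± 0.18, 0.38 ± 0.19 and 0.01 ± 0.17 for Sdha, Sdhb, Sdhc and Sdhd, and none passed (limma adjusted p = 0.76, 0.874, 0.262 and 0.972), nor did any at an unadjusted p under 0.05. The sign for Sdha, Sdhb and Sdhd turned under some settings.

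Complex III had a median of 0.26, with 7 of 9 subunits above 0. None passed in limma, and 2 (Uqcrb and Uqcrh) had an unadjusted p under 0.05, which is 22.2% of the complex, beside 24.7% of all genes and 38.6% of the brightest 50%. Uqcrb, which binds near the ubiquinone site, read 8.83, 8.96 and 8.60 in K-rasG12D AOM, 8.23 and 7.97 in LSL AOM, and 8.75, 8.95 and 9.04 in serrated tumors, for 0.47 ± 0.16 (limma adjusted p = 0.101). Its serrated and K-rasG12D AOM arrays overlapped and its LSL AOM arrays lay below both. Uqcrh, the hinge protein, read 7.62, 7.89 and 7.95, then 8.13 and 7.90, then 8.30, 8.59 and 8.05, for 0.40 ± 0.17 (0.196). Uqcrfs1, the Rieske iron-sulfur protein, gave 0.32 ± 0.15 (0.233), and Cyc1, cytochrome c1, gave 0.27 ± 0.15 (0.299). Of these, Cyc1 alone did not overlap, with 8.21, 8.50 and 8.32, then 8.40 and 8.49, then 8.50, 8.66 and 8.83, and its nearest serrated and AOM arrays both read 8.50 when rounded. Uqcrc2, a core protein and the brightest of the complex, read 8.92 to 9.56 in serrated and 8.95 to 9.18 in AOM tumors. Cycs, cytochrome c itself, read 8.91, 9.14 and 8.77, then 8.58 and 8.91, then 8.97, 9.13 and 9.21, for 0.26 ± 0.16 (0.347).

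Complex IV also had a median of 0.26, and 14 of its 16 subunits lay above 0. Of all 19938 genes 10927 did, and of the brightest 9969 genes 3504 did. Among the 16 only Cox6c passed. The 16 leave out Ndufa4, a complex IV subunit counted under complex I by its name. Ndufa4 passed as lower, at -1.32 (limma adjusted p = 0.00262). The medians of complexes III and IV stayed above 0 in the 17 other settings, between 0.18 and 0.35 for complex III and between 0.19 and 0.41 for complex IV. Trend and robust moderation is among these and cannot move a median. In the settings that kept all 16, between 13 and 15 complex IV subunits lay above 0, and 12 of 13 and 10 of 11 did after the filters on dim genes. Cox6a1, the widespread form of subunit VIa, read 7.98, 8.45 and 8.22 in K-rasG12D AOM, 8.19 and 8.42 in LSL AOM, and 8.64, 8.93 and 8.56 in serrated tumors, for 0.45 ± 0.17 (limma adjusted p = 0.142). Cox5a, which binds at the matrix side, read 7.40, 7.64 and 7.38, then 7.70 and 7.53, then 7.92, 8.09 and 7.61, for 0.33 ± 0.16 (0.25). The serrated arrays of Cox6a1 were all above the AOM arrays, and those of Cox5a overlapped with them. Cox5b, the brightest of the complex, gave -0.03 ± 0.14.

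The paired isoforms of complex IV are told apart by where they are made. Cox7a1, the heart and muscle form of subunit VIIa, read 5.62, 5.17 and 5.44 in K-rasG12D AOM, 6.03 and 5.71 in LSL AOM, and 5.88, 6.36 and 6.41 in serrated tumors. The lowest serrated array overlapped with LSL AOM but not with K-rasG12D AOM. The difference was 0.58 ± 0.19 (limma adjusted p = 0.0943), and it passed after quantile normalization (0.0129), without serrated replicate 1 (0.0316) and with both kinds of array weights. Smooth muscle markers, 7 genes, averaged 5.18 to 5.94, 5.32 to 6.26 and 5.52 to 6.50 in the 3 groups, with the highest value on serrated replicate 1. Striated muscle markers averaged 3.03 to 3.38 on all arrays, and 5 of the 7 (Ckm, Myh1, Myh4, Actn3 and Myl1) lay below the median of every array. The part of muscle in the Cox7a1 values was not tested. Its widespread partner Cox7a2 gave 0.21 ± 0.17 (0.485).

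The other pairs showed differences of like size or smaller. The widespread Cox4i1 gave 0.20 ± 0.18 and the lung form Cox4i2, at 3.49 to 4.06 on all arrays, gave 0.12 ± 0.16. Cox6b1 gave 0.30 ± 0.18, and the testis form Cox6b2, at 3.07 to 3.99, gave -0.24 ± 0.21. Cox8a gave 0.32 ± 0.18, while the muscle form Cox8b, at 2.59 to 3.70, gave 0.36 ± 0.24 and the testis form Cox8c gave 0.34 ± 0.18. Both dim forms were highest on serrated replicate 1, at 3.70 for Cox8b and 4.34 for Cox8c. Cox7b gave 0.20 ± 0.18, its testis form Cox7b2, at 1.92 to 2.37, gave 0.05 ± 0.15, and the muscle form Cox6a2 gave 0.22 ± 0.23. Testis markers, 6 genes, all lay below the median of every array. Probe sets this dim say little about whether a transcript is present.

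Complex V was near no change, with a median of -0.01, 8 of 17 subunits above 0 and 9 below. None passed in limma, and 1 (Atp5g2) had an unadjusted p under 0.05 (5.88%, beside the same 24.7% and 38.6%). The 3 genes Atp5g1, Atp5g2 and Atp5g3 encode the same mature c subunit of the rotor ring. Atp5g2 read 8.30, 8.43 and 8.26 in K-rasG12D AOM, 8.61 and 8.74 in LSL AOM, and 7.68, 8.17 and 8.20 in serrated tumors, for -0.49 ± 0.17 (limma adjusted p = 0.106). Atp5g3 read 9.51, 9.52 and 9.53, then 9.03 and 9.08, then 9.41, 9.48 and 9.62, for 0.22 ± 0.13 (0.346). Atp5g1 gave -0.09 ± 0.17 (0.757). The serrated arrays of Atp5g2 were below all AOM arrays, while those of Atp5g3 overlapped with K-rasG12D AOM and lay above LSL AOM. Atp5j, the coupling factor F6, read 9.76, 9.66 and 9.72, then 9.76 and 9.67, then 9.23, 9.61 and 9.49, for -0.27 ± 0.14 (0.285). Atp5b, the catalytic beta subunit and the brightest of the complex, lay between 10.53 and 11.16 on all arrays and gave -0.16 ± 0.14. The ATP synthase inhibitor Atpif1, no member of the set, gave 0.02 ± 0.14.

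**Figure D4:**
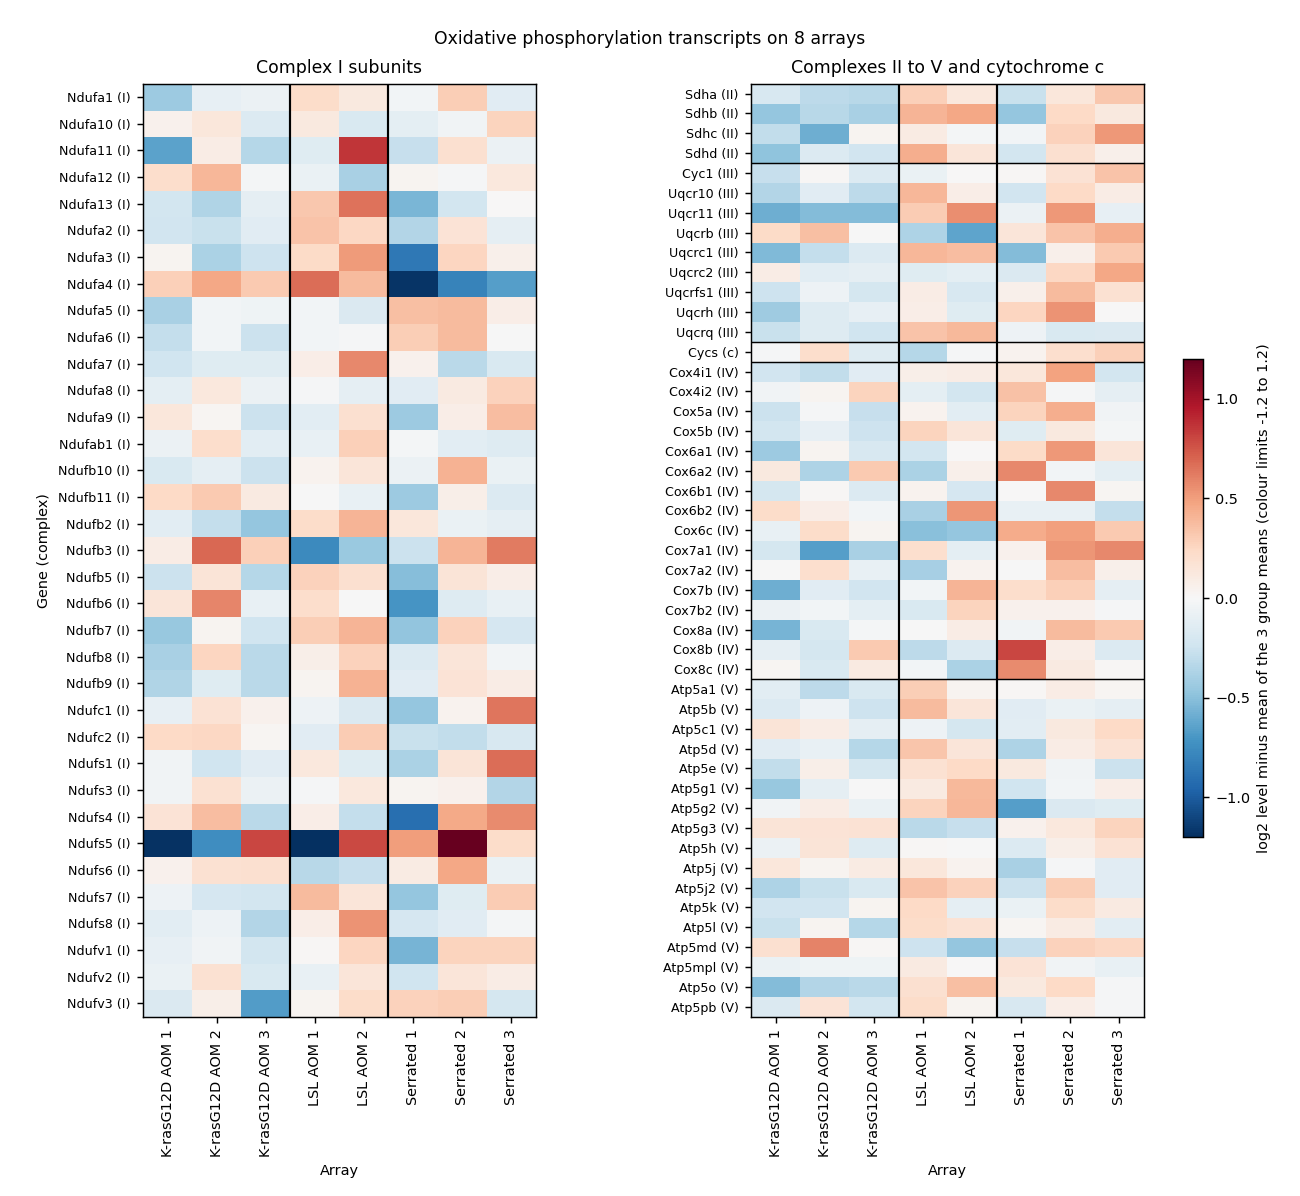
Colour map of 82 subunit transcripts (y axis, grouped by complex) on 8 arrays (x axis), where colour is the log2 level minus the mean of the 3 group means, with colour limits at -1.2 and 1.2. Ndufa4 is blue on the 3 serrated arrays and red on the 5 AOM arrays. Sdha, Sdhb and Sdhd of complex II are low on the 3 K-rasG12D AOM arrays, and serrated replicate 1 is low over many complex I subunits.

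Averaged over all 82 subunits, the level minus the mean of the 3 group means was -0.16, -0.03 and -0.13 on the K-rasG12D AOM arrays, 0.03 and 0.10 on the LSL AOM arrays, and -0.11, 0.16 and 0.07 on the serrated arrays. The serrated arrays thus differed among themselves by more than the groups did. Serrated replicate 1 was low in complex I, at -0.24 against 0.13 and 0.05 on the other serrated arrays. In complex IV it stood at 0.21 against 0.27 and 0.02, but that mean includes isoforms of low signal. Of these, Cox4i2, Cox6a2, Cox8b and Cox8c had their highest value of all arrays there (4.06, 4.83, 3.70 and 4.34). Cox6b2 and Cox7b2 did not. The brightest 50% of all genes was also low on that array, at -0.38, against -0.07 and 0.12. Without that array the median difference over the subunits was 0.13, and without serrated replicate 2 it was 0.01.

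Against each AOM group alone, which share the serrated arrays, the pattern of called genes was short. Against K-rasG12D AOM, Ndufa4 alone passed, at -1.24 ± 0.19 (limma adjusted p = 0.00741), which is 1.22% of the subunits beside 6.45% of all genes. Against LSL AOM, Ndufa4 at -1.41 ± 0.21 (0.00813), Cox6c at 0.91 ± 0.17 (0.0219) and Uqcrb at 0.82 ± 0.19 (0.0451) passed, which is 3.66% beside 5.71%. None of these 3 passed without LSL AOM replicate 1 or replicate 2, where Ndufa4 had an adjusted p of 0.0892 and 0.0522. Subunits above 0 numbered 66 of 82 against K-rasG12D AOM and 35 of 82 against LSL AOM, with medians of 0.12 and -0.05. By complex, the medians against K-rasG12D AOM were 0.06, 0.35, 0.29, 0.28 and 0.08 for complexes I to V. Against LSL AOM they were -0.14, -0.21, 0.22, 0.27 and -0.17. Over all 19938 genes the medians were 0.05 against K-rasG12D AOM and 0.04 against LSL AOM. Over the brightest 9969 genes they were -0.19 and -0.18. The medians of complexes III and IV were thus above 0 and above these values on both sides. Single arrays did not all follow. As level minus the mean of the 3 group means, complex III averaged -0.07, 0.26 and 0.17 on the serrated arrays. It averaged -0.26, -0.12 and -0.2 on the K-rasG12D AOM arrays, and 0.11 and 0.03 on the LSL AOM arrays. The complex IV median of such values was -0.02 on serrated replicate 3, against 0.03 on LSL AOM replicate 2. Subunits share arrays and are not independent. Against LSL AOM, however, complex III had 5 subunits above 0 and 4 below. The medians of complexes I, II and V were above 0 against K-rasG12D AOM, where I and V lay near all genes. Against LSL AOM the medians of complexes I, II and V were below 0 and lay near that of the brightest 9969 genes.

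The AOM groups differ by the K-ras label and share the carcinogen and colon segment. No subunit passed between them, and no gene of 19938 did (0%). At an unadjusted p under 0.05 in limma, however, stood 23 subunits (28%), against 8.36% of all genes and 13.1% of the brightest 50%. Of the 23, 18 were lower in K-rasG12D AOM tumors, and Atp5g3, Atp5md, Cox6c, Ndufb3 and Uqcrb were higher. The K-rasG12D AOM arrays were all below both LSL AOM arrays for 36 subunits (43.9%), against 15.7% of all genes and 20.4% of the brightest 50%. They were all above them for 9 subunits (11%), against 16.4% and 21%. The median difference was -0.18, against 0.01 over all genes, with 23 subunits above 0 and 59 below. It stayed between -0.25 and -0.15 in the 17 other settings, but some of these cannot move it. Trend and robust moderation, a fit of the compared groups only and leaving out a serrated array all keep the AOM group means as they are. The count at an unadjusted p under 0.05 was 9 without K-rasG12D AOM replicate 1, 13 without LSL AOM replicate 1 and 10 without LSL AOM replicate 2, which is 11%, 15.9% and 12.2% of the subunits. The shares of all genes were then 6.21%, 5.61% and 5.17%, and those of the brightest 50% were 9.12%, 8.31% and 7.52%, so that without K-rasG12D AOM replicate 1 the subunits lay near the brightest 50%. Subunits share arrays and are not independent, so these shares describe 5 arrays.

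By complex, the median differences of K-rasG12D minus LSL AOM were -0.16, -0.53, -0.19, -0.06 and -0.35 for complexes I to V. All 4 complex II subunits lay below 0, as did 14 of 17 in complex V, 25 of 35 in complex I, 7 of 9 in complex III and 9 of 16 in complex IV. Sdhb differed by -0.83 ± 0.23, which is 1.77-fold (limma adjusted p = 0.346), Sdhd by -0.58 ± 0.21 (0.469), Sdha by -0.48 ± 0.21 (0.586) and Sdhc by -0.33 ± 0.24. The arrays of Sdha, Sdhb and Sdhd did not overlap between the AOM groups, and those of Sdhc did.

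The smallest p of all subunits between the AOM groups was that of Uqcr11, a small subunit of complex III. It read 5.47, 5.54 and 5.54 in K-rasG12D AOM, 6.36 and 6.62 in LSL AOM, and 5.99, 6.58 and 5.96 in serrated tumors. The K-rasG12D AOM arrays were close together and well below the rest, by 0.98 ± 0.22 against LSL AOM (limma adjusted p = 0.271), or 1.97-fold, and a second probe set gave -0.97. Atp5o, the oligomycin-sensitivity subunit in the stalk of complex V, read 7.01, 7.18 and 7.21, then 7.72 and 7.89, then 7.65, 7.77 and 7.52. Here too the K-rasG12D AOM arrays were the lowest, with a difference of -0.68 ± 0.18 from LSL AOM (adjusted p = 0.318). Uqcrq read 6.37, 6.48 and 6.40, then 6.98 and 7.03, then 6.58, 6.45 and 6.46, for -0.59 ± 0.16 (0.344), and its serrated arrays lay with K-rasG12D AOM instead. The core protein Uqcrc1 gave -0.71 ± 0.26 (0.476), Ndufa13 -0.72, and Atp5b -0.42 ± 0.17 (0.55).

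The subunits that stood the other way were set high in K-rasG12D AOM. Uqcrb differed by 0.70 ± 0.19 (limma adjusted p = 0.346), and its other probe sets gave 0.63 and 0.55. Ndufb3, an accessory subunit of complex I, read 5.19, 5.79 and 5.38 in K-rasG12D AOM, 4.33 and 4.65 in LSL AOM, and 4.84, 5.50 and 5.72 in serrated tumors, for 0.96 ± 0.29 (adjusted p = 0.392). Atp5md, a small subunit of the ATP synthase dimer, gave 0.62 ± 0.25 (0.546), with 0.78 and 0.95 from its other probe sets, and Atp5g3 gave 0.46 ± 0.16 (0.46). In complex III, Uqcrb and Uqcr11 thus lay on opposite sides. Several probe sets of one gene can match near-identical copies in the genome and are not independent. Of the 17 subunits with several, all probe sets gave the same sign in 14 for this comparison, and in 13 for serrated minus AOM.

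**Figure D5:**
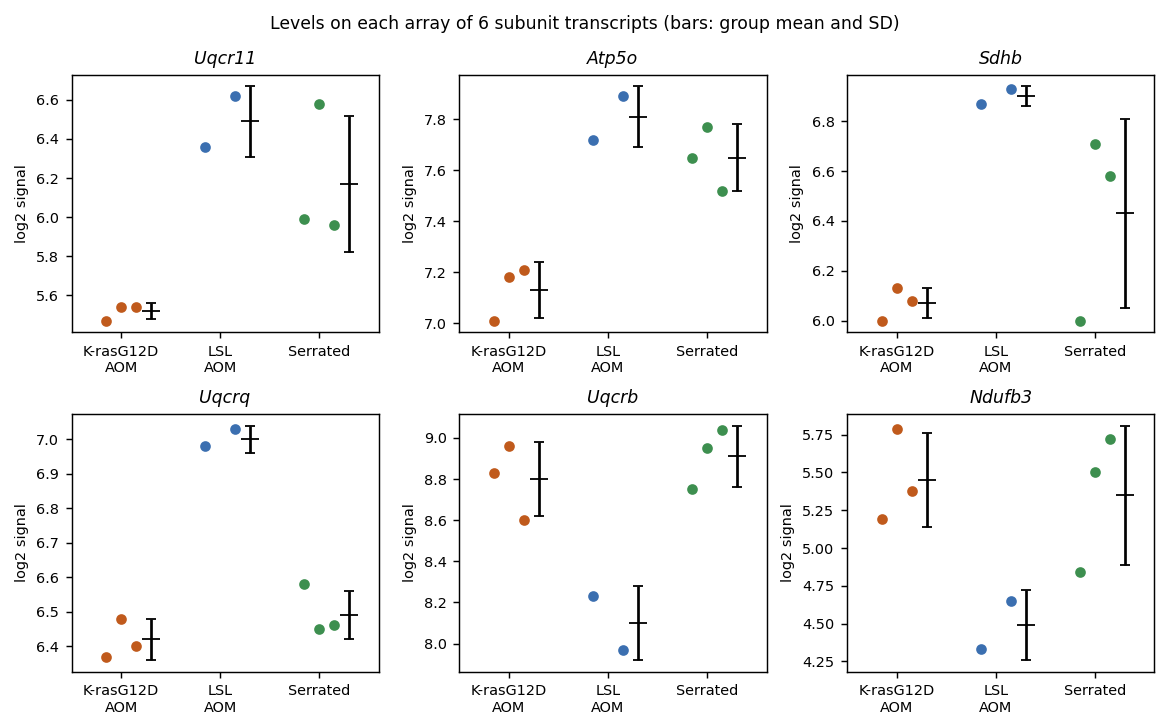
Log2 signal (y axis) of Uqcr11, Atp5o, Sdhb, Uqcrq, Uqcrb and Ndufb3 on each array (points) of the 3 tumor groups (x axis), with group mean and SD as bars. For the first 4 the K-rasG12D AOM points lie below the LSL AOM points (Uqcr11 at 5.47 to 5.54 against 6.36 and 6.62), and for Uqcrb and Ndufb3 they lie above them.

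Genes that build or feed the complexes were counted from lists, to be read beside the 9.38% of all genes and 16.2% of the brightest 50% that passed. Between serrated tumors and the mean of the AOM groups, 1 of 42 measured assembly factors passed: Sdhaf1, an assembly factor of complex II, was lower by 1.22 on the log2 scale (SE 0.23, limma adjusted p = 0.0148). This call was lost when serrated replicate 2 (0.0781) or LSL AOM replicate 1 (0.0617) was left out. Of 16 citric acid cycle genes, Idh3a, a subunit of the NAD-dependent isocitrate dehydrogenase, passed at -1.14 ± 0.22 (0.0144), but not without the same arrays (0.0775 and 0.0583). The median was -0.10 over the assembly factors and 0.01 over the citric acid cycle, where Pcx, pyruvate carboxylase, gave 1.30 ± 0.36 (0.0572).

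Of 14 regulators of mitochondrial genes, Ppargc1b rose and Twnk and Pprc1 fell. Ppargc1b, a coactivator of respiratory genes, read 4.60, 4.88 and 4.84 in K-rasG12D AOM, 4.52 and 4.33 in LSL AOM, and 5.42, 5.57 and 5.45 in serrated tumors. Its serrated arrays were all higher, by 0.88 ± 0.14 (limma adjusted p = 0.00771), and it passed in every setting tried. Twnk, the mitochondrial DNA helicase, gave -0.68 ± 0.16 (0.0331) and Pprc1, a relative of Ppargc1b, gave -0.64 ± 0.17 (0.0485), and these did not pass in 9 and 11 of 17 other settings. The median over the 14 was -0.35.

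Among 11 carriers and uncoupling genes, Ckmt1, a mitochondrial creatine kinase, rose by 0.78 ± 0.20 (limma adjusted p = 0.0406) and Slc25a4, an ADP/ATP carrier, fell by 1.21 (SE 0.23, 0.0141). Ckmt1 did not pass without any 1 of 7 arrays (0.0518 to 0.144), serrated replicate 3 being the exception, and Slc25a4 did not without serrated replicate 2 (0.076). Of 77 mitochondrial ribosomal proteins, Mrpl13 passed at -0.87 ± 0.23 (0.049), and did not in 9 of 17 other settings. Of 24 protein import genes none passed, 11 (45.8%) had an unadjusted p under 0.05, beside 24.7% of all genes and 38.6% of the brightest 50%, and the smallest p belonged to Tomm20, a receptor of the outer membrane, at -1.02 ± 0.30 (0.0703). The medians of these lists were -0.25 and -0.31, with 12 of 77 and 3 of 24 above 0. The median was 0.06 for the subunits and -0.19 for the brightest 50% of genes, of which 3504 of 9969 lay above 0. On the arrays, the ribosomal list averaged 5.96 to 6.18 in AOM tumors and 5.42, 5.78 and 6.15 in serrated tumors, so that serrated replicate 3 lay with the AOM arrays. Between the AOM groups no gene of these lists passed. Their medians were -0.16 for assembly factors, -0.07 for the citric acid cycle, -0.11 for regulators, -0.01 for the ribosome and -0.12 for import. For carriers and uncoupling the median was 0.11, with 7 genes above 0 and 4 below.

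Markers of some other cells differed between the tumor groups. Of all genes, 3.62% passed as higher and 5.76% as lower in serrated tumors, and of the brightest 50%, 5.75% and 10.4%. Absorptive epithelial markers averaged 8.72 to 9.37 on serrated and 4.31 to 6.22 on AOM arrays, and 9 of 10 passed as higher. Proliferation genes averaged 5.65 to 6.81 on serrated and 6.87 to 7.33 on AOM arrays, with 6 of 8 lower, and macrophage markers 4.93 to 5.74 against 6.09 to 6.98, with 5 of 6 lower. Fibroblast markers averaged 6.43 to 7.57 against 7.44 to 8.64, with 3 of 6 lower. None of 4 lymphocyte, 4 endothelial, 7 smooth muscle, 7 striated muscle or 6 testis markers passed in limma, and 1, 0, 2, 1 and 0 of them had an unadjusted p under 0.05. Of 5 adipocyte markers 1 (Cidec) passed as higher, and of 10 general epithelial markers 1 (Krt20) passed as higher and 1 (Cldn4) as lower. Between the AOM groups, proliferation genes averaged 6.87 to 6.95 in K-rasG12D and 7.33 on both LSL arrays. The part of cell makeup in the subunit values was not tested, and in bulk tumors fewer cells of a type and less RNA per cell cannot be told apart.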

How the data were processed

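Total RNA from 8 mouse colonic tumors was hybridised to Affymetrix mouse gene arrays, 1 per tumor, after extraction with an RNeasy kit, per the labels' protocols. The authors deposited log2 signals for which the submitters' processing notes name GCOS and RMA (robust multi-array average); versions and settings are not given in the sources used here. RMA is known to compress differences of dim probe sets. Of 35557 probe sets, 21789 had exactly 1 gene symbol in the platform annotation, which gave 19938 genes; probe sets with several symbols or none were left out, including 6 of which 1 symbol was a subunit (Cox7c, Ndufb4 and Ndufs5 with copies). No dim gene was filtered out.

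One limma 3.58.1 fit (R 4.3.3) of 3 group means to 8 arrays, trend and robust off, gave 4 comparisons. The groups share 1 spread per gene, so errors are too small where serrated arrays vary more. P-values were adjusted by Benjamini-Hochberg over all genes, 0.05 being the threshold; they measure the spread between these samples, which may be technical. An error beside a difference is its standard error. On simulated data for 19938 genes in 10 runs, the fit for serrated minus mean AOM recovered 45.5% of 2-fold and 89.2% of 4-fold changes, with 5.74% false calls. Far fewer genes were changed there than passed in the real comparison. The simulated noise was independent between genes and equal in all groups, so these rates need not hold for the real arrays. The number of arrays limits the precision.

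Named were, per complex, up to 4 subunits of smallest p for serrated minus mean AOM and the brightest, the 4 of smallest p between AOM groups, and tissue isoforms. Other subunits, AA467197, Ndufa4l2 and Atpif1 were named after their values were seen. Pathway lists were given by up to 3 genes of smallest p. Members, lists and motifs were chosen with earlier results of these data known. Alternatives were filters on dim genes, the mean of a gene's probe sets, median centring, quantile normalization, trend and robust moderation, array weights, other fits of the groups, and leaving out each array; array weights by the gene-by-gene method were added after seeing the data.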

Additional observations from a re-analysis of the deposited data

How the results depend on the processing

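In this paragraph, percentages in brackets are the shares of all genes tested in the same setting. Subunits past the threshold for serrated minus mean AOM numbered 2, and 9 at an unadjusted p under 0.05 (24.7%). They numbered 5 after quantile normalization (12.3%) and 1 with the 5 AOM arrays as 1 group (8.3%). With array weights they numbered 41 (51.8%), and with gene-by-gene weights 18 (28.9%). The default weights gave serrated replicate 2 a weight of 25.62, against 0.17 and 0.25 for the other serrated arrays. Against K-rasG12D AOM, 1 became 2 without the dimmest 40% (12.8%) or with the brightest 50% of genes (14.5%). It became 4 after quantile normalization (9.78%), 45 and 26 with the weights (50% and 28.5%), and 12 unadjusted (21.8%). Against LSL AOM, 3 became 5 after quantile normalization (8.9%) and 21 and 9 with the weights (31.9% and 18.4%). It became 0 with the compared groups only (1.67%) and 10 unadjusted (20.3%). Between the AOM groups 0 passed in every setting tried, and 23 did unadjusted. Leaving out single arrays gave 1 to 3, 1 to 3, 0 to 4 and 0 in the 4 comparisons. The median over subunits against LSL AOM, -0.05, turned to 0.07 and 0.05 with the weights.

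Of 48 named genes and comparisons, 45 kept their direction in every setting. Most were picked by smallest p or as passing in these same arrays, so a kept direction was likely beforehand. Filters on dim genes and trend and robust moderation cannot move a gene's difference at all. With single arrays left out, Sdha ran from -0.03 to 0.26, Sdhb from -0.19 to 0.16 and Sdhd from -0.08 to 0.13 (serrated minus mean AOM). Sdhb turned to 0.00 with median-centred arrays, 0.10 after quantile normalization, 0.23 and 0.17 with the weights, and 0.03 with the AOM arrays as 1 group. The cause was not tested. No paired analysis was possible because the labels give no shared replicate numbers.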
